A study of Bos taurus with 6 samples.

Results

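Solute carrier (SLC) genes code for membrane proteins that move amino acids, sugars, ions, metals, nucleotides, vitamins and lipids across membranes. They are numbered by family, with the SLC family number followed by a letter and a member number. A bovine cDNA array carried 243 features, or spotted cDNAs, whose single gene symbol starts with SLC and a digit, out of 19200 features in all and 12630 with a single gene symbol. They covered 167 genes of 44 families among 8397 named genes. SLC18A2 was left out by the rule, as were 2 features shared by SLC25A37 and another gene. The rule works on symbols, so it also took SLC2A4RG, a DNA-binding regulator of the SLC2A4 gene, and SLC7A6OS, the opposite-strand neighbour of SLC7A6, neither of which is known as a transporter.

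The arrays were the first test of this platform, with total RNA from cattle read in 2 colours. On each array 1 tissue filled both channels, either adrenal gland or lymph tissue, and GEO lists 3 arrays for each. Breed, age, sex, the kind of lymph tissue and the source of the RNA are not stated in the labels used here, nor whether the arrays came from separate animals, so the spread between arrays may be technical. The columns of adrenal 2 and lymph 3 did not differ in any of 19200 rows. They were treated as a single shared array that belongs to neither tissue. This left adrenal 1 and 3, lymph 1 and 2, and 5 distinct arrays. Where 5 values are listed together, the adrenal pair comes first (1, then 3), next the lymph pair (1, then 2), and last the shared array.

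Each value is a log ratio of the 2 channels, in deposited log units, with every array centred on its median and the features of a gene averaged. The base of the logarithm and the channel in the numerator are not stated in the labels used here, so "above 0" and "below 0" name the sign and not the brighter dye. A ratio of a tissue to itself gives no level of expression, so the tissue labels could not be checked against markers. The 19 of 25 marker genes of adrenal cortex, chromaffin, lymphoid, stromal and blood cells that were measured had means over the 5 arrays between -0.23 and 0.31, which are ratios and not levels. All 167 SLC genes had a value on each of the 5 arrays. An empty cell was found for 2 of the 243 features, 1 each of SLC26A11 and SLC7A6OS, both on lymph 1, where these genes rest on their other features.

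The adrenal gland pairs a cortex, whose mitochondria make steroids, with a medulla of chromaffin cells that fill vesicles by transport. Lymphocytes take up amino acids and glucose through carriers when they are activated. Mitochondrial carriers of the SLC25 family sit in the inner mitochondrial membrane and exchange metabolites with the cytosol. Zinc moves into the cytosol through SLC39 proteins and out of it through SLC30 proteins, and SLC35 proteins carry nucleotide sugars into the Golgi and endoplasmic reticulum.

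The SLC genes lay close to 0 on every array, with medians of 0.0246 and -0.0267 in adrenal, 0.00651 and -0.0106 in lymph, and -0.00767 for the shared array. Of the 167 genes, 96, 73, 87, 78 and 71 lay above 0 on these arrays, in that order. The median changed sign from array to array, in both tissues, while the median of all 8318 genes tested was between 0.00216 and 0.00642 on each of them. The SD over the SLC genes was 0.139, 0.164, 0.194, 0.124 and 0.0733. The SD over all genes was 0.128, 0.160, 0.177, 0.134 and 0.0755. The SLC genes, like all genes, were most spread on lymph 1 and least on the shared array.

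**Figure D1:**
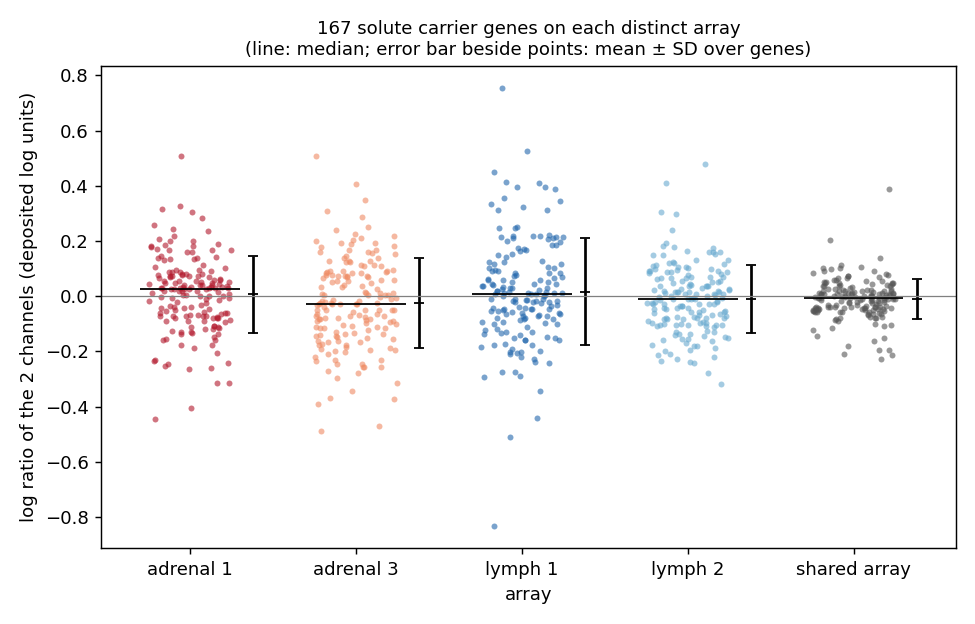
Each point is 1 of 167 SLC genes, with the log ratio in deposited log units on the vertical axis and the 5 distinct arrays on the horizontal axis. Lines mark medians and error bars the mean ± SD over genes. The points are most spread on lymph 1 (SD 0.194) and least on the shared array (SD 0.0733).

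Values far from 0 were those of 1 array at a time. At least 1 of the 5 arrays stood beyond 0.5 in either direction for 6 of 167 SLC genes (3.59%), against 2.54% of all genes. On lymph 1 there were 4 (2.40%, against 1.41% of all genes). SLC46A1, the proton-coupled folate transporter, stood at 0.76 there, against 0.05, -0.02, 0.01 and 0.05 on the other 4 arrays. SLC2A4RG had the lowest SLC value, -0.83 on lymph 1, and lay between -0.13 and 0.10 on the other 4 arrays. The zinc transporter gene SLC39A13 stood at 0.52 on lymph 1 and between -0.04 and 0.11 elsewhere. SLC40A1, which codes for ferroportin, the iron exporter, stood at -0.51 on lymph 1 and -0.20 on adrenal 3, with 0.02, -0.02 and -0.04 on the others. Each of these 4 genes had 1 feature, and lymph 2, the other array of the tissue, held values between -0.02 and 0.05 for them.

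The extremes of the adrenal arrays were not shared between them either. SLC9A5, a sodium/proton exchanger, had 0.51 for adrenal 1 but -0.30 for adrenal 3. SLC25A39, a carrier needed for mitochondrial glutathione import, had -0.44 and 0.31 on the same arrays. SLC38A9, an amino acid sensor of lysosomes, had -0.49 on adrenal 3 but 0.17 on adrenal 1, and SLC25A17, a peroxisomal carrier, had -0.47 and -0.01. SLC15A1, the peptide transporter known from intestine, had 0.51 on adrenal 3 with 0.18 on adrenal 1, so both were well above 0.

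Adrenal against adrenal asks whether any SLC gene left 0 when both channels held adrenal RNA. By limma, 0 of 167 SLC genes had an adjusted p under 0.05, as had 0% of 8318 genes tested, and the smallest adjusted p of an SLC gene was 0.569. At an unadjusted p under 0.05 there were 14 SLC genes (8.38%) against 7.36% of all genes, 8 above 0 (background 5.49%) and 6 below (background 1.86%). The median was -0.0134 over the SLC genes and 0.00292 over all genes, and 75 of 167 lay above 0, where 51.4% of all genes did. Both adrenal arrays were above 0 for 43 SLC genes and below 0 for 41 (25.7% and 24.6%, against 29.1% and 26.4% of all genes). Without adrenal 3, 7 SLC genes and 3.87% of all genes reached the unadjusted p.

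Above 0 in adrenal, the smallest p were those of SLC15A1 at 0.34 ± 0.09 (limma's moderated SE, n = 2) and SLC13A4, a sodium-coupled sulfate transporter, at 0.27 ± 0.09. SLC13A4 stood at 0.14 and 0.41 on adrenal 1 and 3, so both genes were higher on adrenal 3. Over all 5 arrays the values of SLC15A1 were 0.18, 0.51, -0.13, -0.04 and -0.04, and those of SLC13A4 were 0.14, 0.41, -0.12, -0.03 and -0.05, which is the same order of adrenal 3, adrenal 1 and then the others. Next came SLC7A4, of the cationic amino acid transporter group, at 0.18, SLC35A1, the Golgi carrier of CMP-sialic acid, at 0.20, and SLC25A12, a mitochondrial aspartate/glutamate carrier, at 0.18.

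Below 0 in adrenal stood SLC25A27, an uncoupling protein of the mitochondrial carrier family, with -0.26 and -0.28 on the 2 arrays and an estimate of -0.27 ± 0.07. SLC25A13, the other mitochondrial aspartate/glutamate carrier, had -0.23 and -0.26, and an estimate of -0.24 ± 0.07. SLC6A9, the glycine transporter GlyT1, stood at -0.21, SLC66A2 at -0.29 and SLC1A4, a transporter of neutral amino acids, at -0.20. The adjusted p of these 10 adrenal genes lay between 0.569 and 0.676 by limma, and none passed.

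Lymph against lymph asks the same of lymph RNA. By limma, 0 of 167 SLC genes and 0% of all genes passed at an adjusted p under 0.05, with 0.601 the smallest adjusted p of an SLC gene. An unadjusted p under 0.05 was reached by 14 SLC genes against a background of 8.02%, 8 above 0 (background 5.51%) and 6 below (background 2.51%). The SLC median was -0.00743, against 0.00595 for all genes, and 78 of 167 SLC genes lay above 0 (background 52.3%). Both lymph arrays were above 0 for 43 SLC genes (background 28.6%) and below 0 for 45 (background 25.2%). This unadjusted p was reached by 5 SLC genes and 5.44% of all genes without lymph 1, and by 21 SLC genes and 10.7% of all genes without lymph 2.

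SLC12A4, a potassium/chloride cotransporter, had the smallest p, with 0.31 and 0.24 on lymph 1 and 2 and an estimate of 0.28 ± 0.08 (limma SE, n = 2). The thiazide-sensitive sodium/chloride cotransporter gene SLC12A3 stood at 0.33 and 0.11, and SLC30A5, a zinc transporter of the secretory pathway, at 0.31 and 0.09. The creatine transporter gene SLC6A8 had 0.06 on lymph 1 and 0.48 on lymph 2, so its estimate of 0.27 ± 0.10 came mostly from lymph 2. That of SLC39A13, 0.29 ± 0.11, came mostly from lymph 1.

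Below 0 in lymph, SLC46A2, a transporter known from thymic stroma, stood at -0.34 and -0.20, with an estimate of -0.27 ± 0.08. SLC17A9, which loads nucleotides into vesicles, had -0.22 and -0.21, and SLC24A3, a sodium/calcium-potassium exchanger, -0.21 and -0.15. SLC34A2, a sodium/phosphate cotransporter, stood at -0.44 and -0.19 in lymph, yet at 0.39 on the shared array, the highest SLC value there. SLC25A27 stood at -0.16 and -0.20. The limma adjusted p of the 10 lymph genes lay between 0.601 and 0.617.

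The difference between tissues asks whether a departure from 0 depended on the tissue that filled both channels. By limma, 0 of 167 SLC genes and 0% of all genes passed, with 0.941 as the lowest adjusted p. An unadjusted p under 0.05 was reached by 7 SLC genes (4.19%) against 4.82% of all genes, 4 with lymph above adrenal (background 2.46%) and 3 with lymph below (background 2.36%). Both lymph arrays lay above both adrenal arrays for 23 SLC genes (13.8%, background 16.3%) and below them for 24 (14.4%, background 17%). The median difference was 0.0115 over SLC genes and -6.96e-05 over all genes, and it was above 0 for 90 of 167 SLC genes (background 50%). Without lymph 2, 22 SLC genes and 7.98% of all genes reached the unadjusted p. With all 6 columns as labelled, 3 SLC genes and 1.9% of all genes did.

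SLC6A9 had the smallest p of the difference, with -0.24 and -0.18 on the adrenal arrays and 0.15 on each lymph array, an estimate of 0.36 ± 0.10 (limma SE, lymph minus adrenal). The shared array stood between them, at -0.07. SLC6A8, of the same family, had -0.14 on each adrenal array and 0.06 and 0.48 on the lymph arrays. The sugar transporter gene SLC50A1 stood at -0.26 and -0.07 in adrenal and 0.39 and 0.07 in lymph, and SLC17A5, the lysosomal exporter of sialic acid, at -0.04 and -0.31 against 0.41 and 0.01. SLC10A3, an orphan of the bile acid transporter family, had lymph 2 and adrenal 3 both at -0.09, so its groups touched, and its estimate of 0.38 ± 0.17 came from adrenal 1 (-0.40) and lymph 1 (0.35).

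With lymph below adrenal, SLC15A1 had a difference of -0.43 ± 0.13 and SLC13A4 one of -0.35 ± 0.12. SLC24A3 stood at 0.09 and 0.07 in adrenal and -0.21 and -0.15 in lymph, with 0.06 on the shared array. SLC4A1, the band 3 anion exchanger of red cells, had 0.17 and 0.08 in adrenal and -0.20 and -0.04 in lymph. SLC25A51, the mitochondrial NAD carrier, had 0.02 and 0.08 against -0.15 and -0.18, and the shared array, at -0.16, lay with the lymph arrays. In these 5 genes both lymph arrays lay below both adrenal arrays, as for 14.4% of SLC genes and 17% of all genes. The 5 were named for a small p of this difference, which favours such a gap. The limma adjusted p of all 10 genes of this comparison was 0.941.

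**Figure D2:**
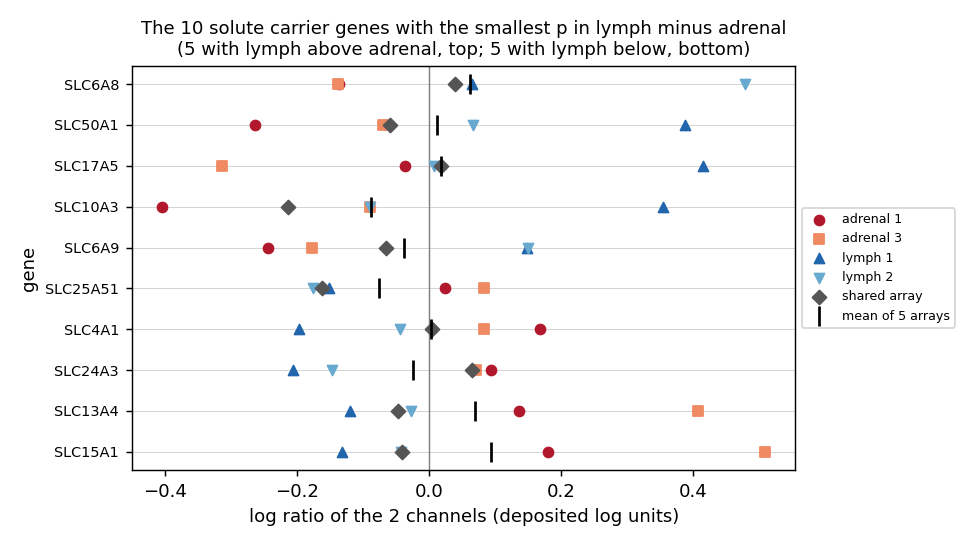
Each row is 1 of the 10 SLC genes named for lymph minus adrenal, with the log ratio in deposited log units on the horizontal axis. Symbols are single arrays and the black tick is the mean of 5 arrays. SLC6A9 has both lymph arrays at 0.15 and adrenal at -0.24 and -0.18, while SLC10A3 has an array of each tissue at -0.09.

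The average of the 5 distinct arrays asks for departures from 0 that recurred whatever the tissue. By limma, 0 of 167 SLC genes and 0% of all genes passed at an adjusted p under 0.05 (smallest 0.299). An unadjusted p under 0.05 was reached by 16 SLC genes (9.58%) against 9.83% of all genes. Of these, 8 were above 0 and 8 below, where the background was 7.14% above and 2.69% below. The SLC median was -0.00833 against 0.00490 for all genes, and 77 of 167 genes lay above 0 (background 53.3%). Leaving out lymph 2, 10 SLC genes and 7.96% of all genes reached the unadjusted p. All 5 arrays were above 0 for 10 SLC genes (5.99%, background 7.04%) and below 0 for 4 (2.40%, background 3.96%).

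The 4 genes below 0 on all 5 arrays were SLC17A9 and 3 mitochondrial carriers, SLC25A27, SLC25A13 and SLC25A23. The 3 carriers had 1 feature each. SLC17A9 had 2 features, and its feature 5397 lay above 0 on adrenal 1 (0.05) and lymph 1 (0.02). SLC25A27 stood at -0.26, -0.28, -0.16, -0.20 and -0.21, with a mean of -0.22 ± 0.04 (limma SE, n = 5). By limma its p ranked 3 among the 8318 genes, with an adjusted p of 0.299. The shared array, the narrowest of the 5 over the SLC genes, held a value between those of the adrenal and the lymph arrays. SLC25A13 followed at -0.18 ± 0.04, with -0.23, -0.26, -0.20, -0.08 and -0.15. SLC25A23, a calcium-regulated carrier of ATP-magnesium and phosphate, stood at -0.11 ± 0.04, SLC17A9 at -0.13 ± 0.04, and SLC16A11, of the monocarboxylate transporter family, at -0.10 ± 0.04 with 4 of 5 arrays below 0.

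SLC12A4 led the genes above 0, at 0.18 ± 0.05, with 0.22, 0.04, 0.31, 0.24 and 0.10 on the 5 arrays. SLC15A4, a lysosomal transporter of histidine and peptides, stood at 0.13 ± 0.04, with values from 0.04 to 0.20. The zinc importer gene SLC39A4 stood at 0.14 ± 0.04, with values from 0.05 to 0.25, and SLC30A5 at 0.15 ± 0.05, from 0.01 to 0.31. SLC35A1 stood at 0.16 ± 0.05, but lay at -0.04 on the shared array and above 0 on the other 4. The remaining genes above 0 on all 5 arrays were SLC12A3, SLC12A7, SLC27A4, SLC29A1, SLC38A2 and SLC44A2, with means between 0.05 and 0.11. Of the 2 features of SLC38A2, 10403 lay below 0 on adrenal 1 and 3 (-0.06 and -0.09), and 16942 on lymph 1 (-0.04). Of the 2 features of SLC29A1, 18712 was above 0 on all 5 arrays. Its feature 13935 stood at -0.01 on adrenal 1 and on the shared array.

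**Figure D3:**
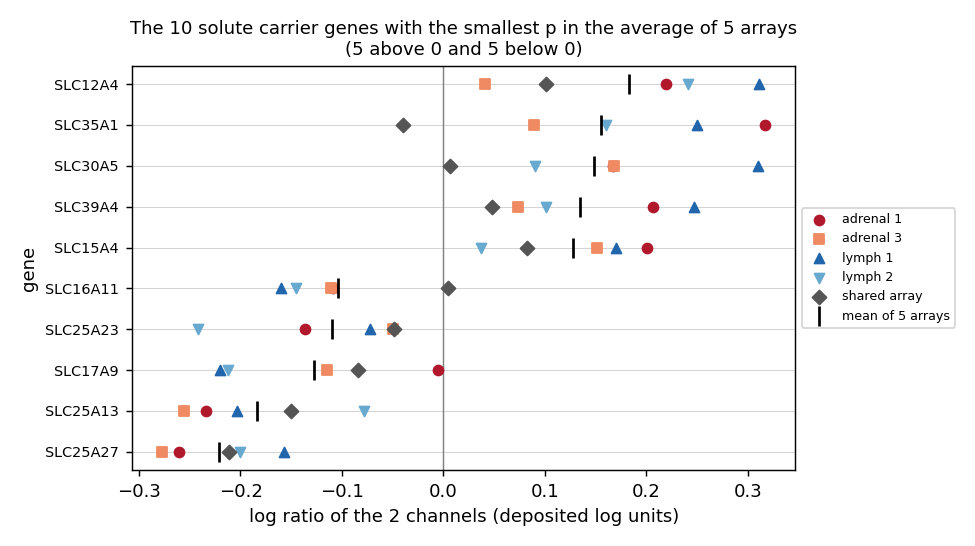
Each row is 1 of the 10 SLC genes named for the average of 5 arrays, with the log ratio in deposited log units on the horizontal axis, symbols for single arrays and a black tick for their mean. SLC25A27 lies between -0.28 and -0.16 on all 5 arrays, and SLC12A4 between 0.04 and 0.31.

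By family, 116 of the 167 genes fell into 15 families of at least 4 genes, and 11 families had 1 gene. The SLC25 family was the largest, with 27 genes and 37 features. Its array medians were -0.06, -0.05, -0.01, -0.03 and -0.01, all below 0. It was the 1 family of the 15 with all 5 medians below 0. Of its 27 genes 16, 17, 14, 17 and 18 lay below 0 on these arrays, where 50.9% to 52.1% of all genes lay above 0. In the mean of 5 arrays 19 of 27 were below 0, with a median of -0.04, while 53.3% of all genes were above 0. In this mean SLC4 had 5 of 6 genes below 0 (median -0.05), SLC2 6 of 8 and SLC37 4 of 4. On the other side, SLC12 had 3 of 4 above 0 and SLC39 7 of 11. Apart from SLC25A27 and SLC25A13, the means of the SLC25 genes lay between -0.11 and 0.10. No member passed by limma after adjustment, and an unadjusted p under 0.05 in the average was reached by 0 members above 0 (background 7.14%) and 3 below (background 2.69%).

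Within the family, some carriers outside the rule for named genes are given for their known roles. The 3 ADP/ATP carriers SLC25A4, SLC25A5 and SLC25A6, which exchange ATP made in mitochondria for cytosolic ADP, had means of -0.04, -0.04 and -0.11. SLC25A6 reached -0.39 on adrenal 3, with -0.02 on adrenal 1. The phosphate carrier gene SLC25A3 stood at -0.03. The aspartate/glutamate carriers lay on opposite sides of 0, with SLC25A12 highest of the family at 0.10 and SLC25A13 second lowest at -0.18. SLC25A12 had 2 features, and on each array except the shared one its mean lay above 0. Of the other metabolite carriers, the citrate carrier SLC25A1 stood at 0.01, the dicarboxylate carrier SLC25A10 at -0.01, the oxoglutarate carrier SLC25A11 at 0.07, the ornithine carrier SLC25A15 at -0.11 and the carnitine/acylcarnitine carrier SLC25A20 at -0.06. SLC25A30 stood at -0.29 on lymph 1 and 0.30 on lymph 2, the widest spread between the lymph arrays in this family.

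**Figure D4:**
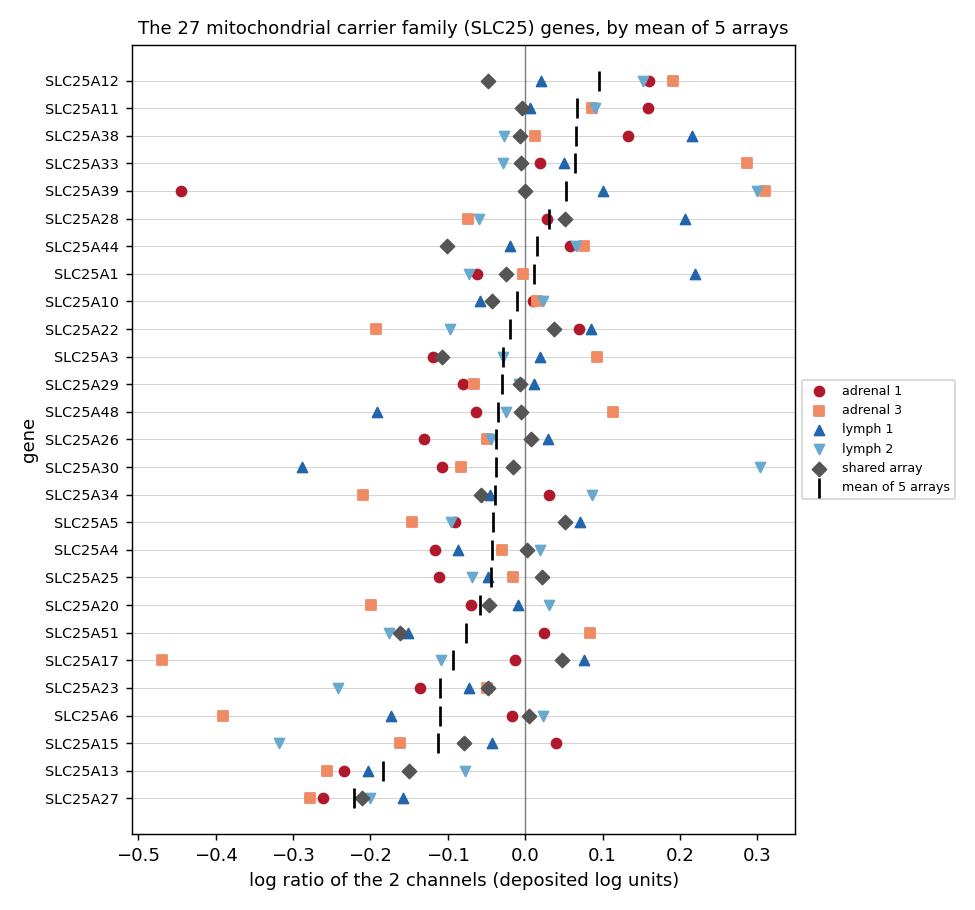
Each row is 1 of 27 SLC25 genes, ordered by the mean of 5 arrays (black tick), with the log ratio in deposited log units on the horizontal axis and a symbol for each array. The means of 19 genes lie below 0, and SLC25A27 and SLC25A13 are at the bottom with all 5 arrays below 0.

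The SLC12 family of cation/chloride cotransporters, with 4 genes, was the 1 family with all 5 array medians above 0 (0.04, 0.03, 0.27, 0.10 and 0.04). The gene values of SLC12A4, SLC12A3 and SLC12A7 were each above 0 on all 5 arrays, at means of 0.18, 0.11 and 0.08. SLC12A4 and SLC12A3 had 1 feature each. Of the 3 features of SLC12A7, only 17385 was above 0 on all 5 arrays. Its features 7470 and 17424 each lay below 0 on 3 arrays. SLC12A9 differed, with -0.21 and -0.28 on adrenal 1 and lymph 2 and 0.15 and 0.10 on adrenal 3 and lymph 1. A family of 4 genes is small, and the median on lymph 1 lay well above those on the other arrays.

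Grouped by family number into classes named for what most members carry, 8 classes had medians between -0.04 and 0.03 in the mean of 5 arrays. The 28 genes of the amino acid transporter families had 17 above 0 and a median of 0.02. Among them by family number were SLC7A6OS and the creatine transporter gene SLC6A8. SLC15A4 was highest in this class at 0.13 and SLC1A4 lowest at -0.12. SLC7A5 and SLC3A2, the light and heavy chain of a transporter induced in activated lymphocytes, stood at 0.40 and 0.14 on lymph 1, and at -0.11 and -0.03 on lymph 2. These values, chosen after they were seen, do not lie on 1 side of 0.

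The 22 metal ion transporters had a median of 0.03, with array medians above 0 on 4 arrays and -0.01 on the shared array. SLC30A5 was highest and SLC40A1 lowest, at -0.15. Among the 11 zinc importers of SLC39, 7 had means above 0. The values of SLC39A2, which is outside the rule for named genes, were 0.05, 0.20, 0.21, 0.12 and -0.02. Of its 2 features, 8610 lay above 0 on all 5 arrays. Feature 12757 lay at -0.14 on adrenal 1 and -0.07 on the shared array. The 28 genes of the sugar and organic acid families, SLC2A4RG and the sulfate transporter gene SLC13A4 among them by family number, had 11 above 0 and a median of -0.01, from SLC2A4RG at -0.16 to the melanosome transporter gene SLC45A2 at 0.07. The glucose transporter genes SLC2A1, SLC2A3 and SLC2A4 stood at -0.01, -0.02 and 0.02, and each had arrays on both sides of 0. The monocarboxylate transporter genes SLC16A1 and SLC16A3 stood at -0.01 and 0.00156.

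The 24 carriers of nucleotide sugars, nucleosides and vitamins had 12 genes on each side of 0, with SLC46A1 highest at 0.17 and SLC46A2 lowest at -0.11. Of the 13 SLC35 genes 8 had means above 0. The 13 transporters of protons, bicarbonate, chloride and sulfate had a median of -0.01, with SLC12A4 highest and the sodium/bicarbonate cotransporter gene SLC4A4 lowest at -0.09. This median became 0.03 without lymph 1, while 4 of its 5 array medians were above 0. The 17 carriers of lipids, bile acids and organic ions had 11 below 0, from SLC22A16, a carnitine transporter, at -0.11 to SLC44A2, of the choline transporter-like family, at 0.10. The 8 phosphate and vesicular transporters had a median of 0.03, from SLC17A9 to SLC17A2 at 0.11.

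Lists of other genes with symbols of membrane transport groups were read from the same limma fits. Members taken by symbol, such as ABCE1, ABCF2, ABCF3 and TRPC4AP, need not move solutes themselves. Of all genes 53.3% lay above 0 in the average, and 7.14% above and 2.69% below reached an unadjusted p under 0.05. The 19 genes of the ABC transporter list had 13 above 0 in the average and a median of 0.02, with 3 above 0 and 0 below at this p. The 32 ion and lipid pumps had 20 above 0 and a median of 0.02, with 3 above and 1 below at this p. The 37 genes of the ion channel list had 18 above 0 and a median of -0.00201, with 2 above and 2 below. Among 5 aquaporins and 3 organic anion transporters of the SLCO group, 3 and 2 lay above 0, with 0 above and 1 below at this p in the former and 0 in the latter. By limma 0 of these genes passed after adjustment in any of the 4 comparisons.

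Of the 167 genes, 109 had 1 feature, 42 had 2, 14 had 3 and 2 had 4. Most low p-values belonged to genes with 1 feature, 13 of 14 in adrenal, 12 of 14 in lymph, 7 of 7 in the difference and 12 of 16 in the average. Over all genes, those with 1 feature held 520 of 612 low p-values in adrenal and 560 of 667 in lymph. They held 358 of 401 in the difference and 618 of 818 in the average. By limma, an unadjusted p under 0.05 in adrenal was reached by 10.1% of all genes with 1 feature and 2.90% of those with more. SLC genes with 2 or more features were also less spread, with an SD of 0.126 against 0.222 on lymph 1 and 0.0354 against 0.0867 on the shared array.

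Features of 1 gene did not share their values. Over the 58 SLC genes with at least 2 features, the first 2 by number had a Pearson correlation across genes of -0.13, 0.19, 0.09, 0.03 and -0.22 on the 5 arrays (57 pairs for lymph 1). Both lay on the same side of 0 in 27, 31, 33, 34 and 29 pairs. For the mean of 5 arrays the correlation was 0.10 over 58 SLC genes and 0.00470 over the 3167 such genes of the array. The pairs share a gene and an array, genes are not independent replicates, and these figures are a description with no test. Between arrays, the Pearson correlation over the 167 genes ran from -0.07 (adrenal 1 and lymph 1) to 0.22 (adrenal 1 and lymph 2).

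SLC27A4, a fatty acid transport protein, shows this in 3 features, and was chosen after its values were seen. Feature 14062 was above 0 on all 5 arrays (0.31, 0.23, 0.23, 0.37 and 0.16), while feature 10606 was below 0 on all 5 (-0.09, -0.08, -0.05, -0.15 and -0.04). Feature 907 had 2 arrays above 0 and 3 below. The gene's mean was 0.05, and on adrenal 1, lymph 1 and lymph 2 it lay on the same side of 0 as 1 of its 3 features. Whether these cDNAs report the same transcript was not tested.

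The widest gap between features of a gene was that of SLC35A4, where feature 6610 stood at 0.59 on adrenal 3 and the other two at -0.06 and 0.0025. For SLC16A1, a lactate and pyruvate transporter, feature 7153 had 0.22 and 0.13 on adrenal 3 and lymph 1, and feature 16188 had -0.37 and -0.41 on the same arrays. SLC4A2, an anion exchanger, had features at 0.21, -0.33 and -0.09 on adrenal 3. The 2 genes with 4 features averaged close to 0, SLC26A11 at 0.05 and SLC39A3 at -0.03, though single features reached 0.45 (SLC26A11, adrenal 3) and 0.27 (SLC39A3, adrenal 3). In contrast, the 2 features of SLC30A5 were both above 0 on the 4 tissue arrays. They stood at 0.28 and 0.06, 0.13 and 0.21, 0.34 and 0.28, and 0.06 and 0.12. On the shared array they lay on opposite sides of 0, at 0.04 and -0.03. This gene was set as a contrast with its values already known.

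**Figure D5:**
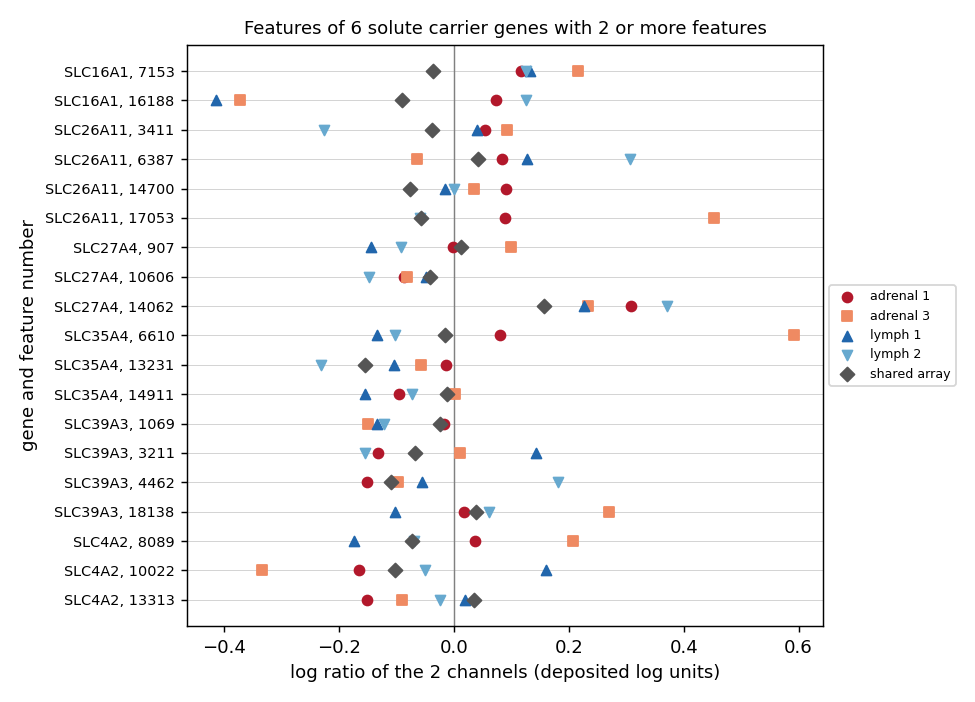
Each row is 1 feature of 6 SLC genes, labelled by gene and feature number, with the log ratio in deposited log units on the horizontal axis and a symbol for each array. The 3 features of SLC27A4 separate, with 14062 above 0 and 10606 below 0 on all 5 arrays, and feature 6610 of SLC35A4 reaches 0.59 on adrenal 3.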

How the data were processed

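The deposited table gave 1 value for each of 19200 features on 6 two-colour arrays, which from the values are log ratios. What the authors did to make them, including scanner, background correction, normalisation, log base and dye orientation, is not stated in the labels or file headers used here. Deposited array medians lay between -0.0112 and 0.00171. Names came from GEO's platform annotation, and 237 of 243 SLC features had a gene number in the RefSeq table of assembly ARS-UCD2.0, with 0 changed symbols.

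Arrays were centred on their medians and features of a gene averaged. limma 3.58.1 (lmFit, eBayes) in R 4.3.3 was fitted on all genes with a value on the 4 tissue arrays (8318), two-sided, with Benjamini-Hochberg adjustment at 0.05 over all of them. It gave each tissue against 0, their difference and, on 5 arrays, the average. The fits were tested on simulated data. The number of arrays limits the precision, and signal over background was not used. Python 3.11.15, numpy 2.4.6, pandas 2.3.3 and matplotlib 3.10.9 did the rest.

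Members, lists and tests were chosen with earlier results of these data known. Named genes were the 12 largest per direction past the threshold or, where fewer than 5 passed, the 5 with the smallest p per direction. Added to these were the highest and lowest of each class, the 5 highest and lowest single-array values, genes with 4 or more features and the 3 widest feature gaps. Alternatives changed centring, scaling, averaging, filters, spread estimates and the arrays used. SLC genes were grouped by family number into 8 transport classes. The pump list took fewer ATP-prefixed symbols than first written, to leave out mitochondrial ATP synthase genes.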

Additional observations from a re-analysis of the deposited data

Results flagged for a closer look

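For 45 genes named by the rule, and for the SLC median and SD per array, the 5 distinct arrays were searched for 1 array standing apart from the other 4, meaning that its gap to the nearest array exceeded 0.71 of the whole range. In 47 such sets, 4 had an array apart, each time lymph 1. Chance gives about 1 in 20 for 5 values of equal spread. The arrays differed in spread, with an SD over SLC genes from 0.0733 on the shared array to 0.194 on lymph 1. That rate is therefore no yardstick for these sets. The 5 arrays mix both tissues. SLC46A1 stood at 0.76 on lymph 1, with -0.02 to 0.05 on the other arrays. SLC2A4RG stood at -0.83, with -0.13 to 0.10 on the others. SLC39A13 stood at 0.52, with -0.04 to 0.11 on the others, and SLC12A3 at 0.33, with 0.03 to 0.11. SLC46A1, SLC2A4RG and SLC39A13 were named partly for their extreme value on this array, and SLC12A3 for its p in lymph, to which this array contributes, so the search was not independent of the choice. Lymph 1 also had the largest SD over SLC genes and the most empty cells of the 5 arrays (177), and the part of either in these values was not tested.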

How the results depend on the processing

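The count of SLC genes past the adjusted threshold by limma was 0 in each of the 4 comparisons under all alternatives run, with the smallest adjusted p between 0.329 and 1.00 for adrenal, 0.195 and 0.827 for lymph, 0.426 and 1.00 for their difference, and 0.124 and 0.696 for the average. The 40 values of named genes kept their sign in all 630 alternatives. These genes were named for a small p in the same data, which favours a stable sign. Some alternatives changed only the spread estimate, and single features were not among them. The kept signs are therefore no measure of robustness.

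Among all genes, 1 was called in adrenal with no filter on empty cells. With single arrays omitted, the calls ranged over 0 to 5 for adrenal, 0 to 2 for lymph and 0 to 5 for their difference, and 0 were SLC genes. With a spread trend on the number of features, 8 SLC genes reached an unadjusted p under 0.05 in adrenal, against 7.38% of all genes. With the shared column placed in adrenal they numbered 7 (background 5.54%). With all 6 columns they numbered 9 without and 8 with the replicate block (background 6.53% and 5.66%). In lymph they numbered 6 with the shared column placed in lymph (background 5.29%), and 20 with it placed in adrenal (background 10.4%). In the difference they numbered 13 as single features (of 241, background 4.75%). There they numbered 3 with all 6 columns (background 1.9%) and 4 with the replicate block (background 2.83%). With single arrays omitted they ranged over 7 to 14 for adrenal, 5 to 21 for lymph, 5 to 22 for their difference and 10 to 17 for the average, which had 20 without the shared array. The cause was not tested, except that leaving out an array leaves a tissue with 1 array, assumed to vary like the other tissue.

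The SLC median was 0.0246 without adrenal 3 and -0.0267 without adrenal 1 in adrenal, and 0.00651 without lymph 2 and -0.0106 without lymph 1 in lymph, so its sign in a tissue rests on 1 array. Scaled to 1 median absolute deviation, in that unit, it was -0.0497 in lymph and -0.0567 in the average, and the SLC SDs were 1.13, 1.02, 1.23, 0.818 and 1.06, by construction. The class of proton, bicarbonate, chloride and sulfate transporters had medians between -0.0227 and 0.0340 with single arrays omitted. Of the distinct tissue arrays, only those numbered 1 occur in both tissues, so whether the numbers pair arrays could not be judged.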
